A study of Mus musculus with 18 samples.

Results

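The transcriptomes of irradiated embryonic stem cells and of irradiated cells differentiated from them were compared 4 h after exposure. The members of the comparison were chosen from the sample labels, which gave 6 of the 18 arrays in the series: 3 arrays of ESRL, mouse embryonic stem (ES) cells that received 10 Gy of ionizing radiation (IR) and were collected at 4 h, and 3 arrays of EDRL, isogenic differentiated (ED) cells given the same dose and collected at the same time. ES cells were early passage primary cultures kept without feeder cells in the presence of leukemia inhibitory factor (LIF). ED cells were obtained by growing ES cells without LIF for about 1 week, or until the stem cell markers were gone. The methods of the study state that beta-mercaptoethanol was withdrawn as well, so the medium differed between the cell types in more than LIF. Loss of LIF does not direct cells into 1 lineage, so ED cells are not a defined cell type. Unirradiated ES and ED cells, 3 arrays each, were used beside the irradiated pair, and no array belongs to both pairs. The labels call the arrays of a group triplicates and do not say that they come from separate cultures, so the p-values below measure only the spread between these samples.

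ES cells keep their identity through a circuit of transcription factors around Oct4 (Pou5f1), Sox2 and Nanog, and they grow as tight colonies of an epithelial kind with a cell cycle that has little G1 arrest. On exit from pluripotency that circuit is shut down, and many derivatives lose cell junctions and take up a mesenchymal program of collagens and intermediate filaments. After IR, double-strand breaks activate ATM and p53, and p53 in turn induces genes of cell cycle arrest such as Cdkn1a and of cell death such as Fas and Pmaip1.

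Signals are given as log2 values relative to the 75th percentile on that array, here called relative log2 signal, and differences are ESRL minus EDRL on the log2 scale, so that positive values mean a higher signal in irradiated ES cells. A gene was called where a probe had an adjusted p under 0.05 in the limma fit and a difference over 1 in size. A probe was tested where it was well above background on all 3 arrays of ESRL or of EDRL. The number of arrays limits the precision. ESRL array 1 stood apart from the others in having been scanned on another day and scanner and in having fewer probes well above background (63.3% against 70.7% to 79.4% on the other 5 arrays). Between ESRL arrays the correlation across probes was 0.958 to 0.975, and between EDRL arrays it was 0.988 to 0.993. ESRL and EDRL arrays never had the same scan time, so scan and cell type cannot be told apart within the pair. ES and ED arrays shared no scan time with each other or with the irradiated pair either. Scan therefore cannot be told apart from a change between the pairs. In bulk samples of this kind, fewer cells of a type and less RNA per cell cannot be told apart.

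Irradiated ES and ED cells differed in about as many genes as did not pass the test. Of 24050 genes tested, 11892 (49.4%) were called. Higher signals in ESRL were found for 6013 genes (25.0%) and lower signals for 5897 genes (24.5%), 18 of which had probes on both sides. The counts of the gene lists below are to be read beside these shares. Large differences were more often in favor of ES cells: 1889 genes were higher and 632 lower by over 4, and 295 were higher and 59 lower by over 8. The groups did not overlap for 68.2% of the 23547 probes with 6 values. With a random block for scan time the counts were 5029 higher and 4825 lower, and without ESRL array 1 the counts were 6476 and 5109. The split depended on the scaling. Setting each array to its own median moved the median difference of all probes from -0.06 to -0.54, and 4593 genes (34.1% of calls) were then higher and 8867 lower.

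**Figure D1:**
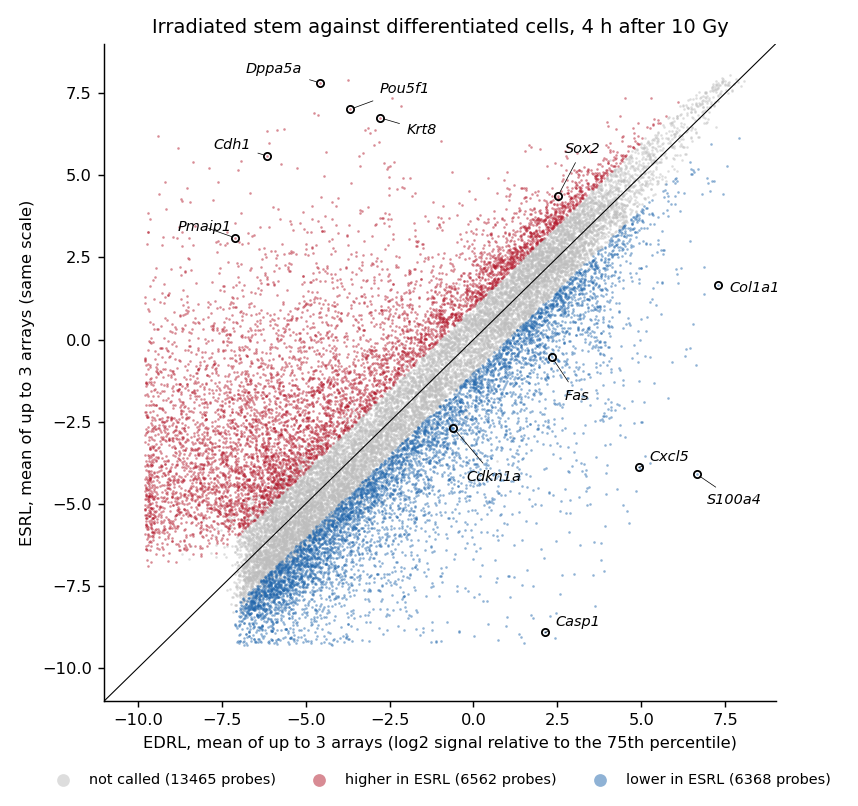
Mean relative log2 signal of each tested probe in EDRL (horizontal axis) and ESRL (vertical axis), 3 arrays each, with probes called higher in ESRL, called lower and not called in separate colors. The 1106 probes well above background on all 3 ESRL arrays and on 0 EDRL arrays lie toward the left, and the 562 probes with the reverse pattern lie at the bottom.

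Among genes measured above background on all 6 arrays, the largest difference in favor of ESRL was that of Dppa5a, an RNA-binding protein restricted to pluripotent cells and germ cells. Its relative log2 signal was 7.86, 7.78 and 7.81 on the 3 ESRL arrays and -4.67, -4.42 and -4.64 on the 3 EDRL arrays, a difference of 12.39 (SE 0.34, adjusted p = 5.29e-13). The growth factor Igf2 had values of 6.16, 6.48 and 6.62 on the 3 ESRL arrays and -5.58, -5.87 and -5.47 on the 3 EDRL arrays and differed by 12.06 (SE 0.26, adjusted p = 8.71e-14), and its other probes gave differences up to 12.51. In both genes every ESRL array lay far above every EDRL array. Igfbp2, which binds insulin-like growth factors, differed by 12.08, the glucose transporter Slc2a3 at 11.65, Bex1 at 11.46 and the F-box gene Fbxo15, a known target of Oct4 and Sox2, at 11.08. Pigp had 1 probe at 11.66 while its 5 other probes differed by 0.55 to 0.82, so its value rests on that probe.

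Among the same genes, the largest difference in favor of EDRL was that of S100a4, a calcium-binding protein of fibroblasts and migrating cells. It measured -3.29, -4.47 and -4.54 on the 3 ESRL arrays and 6.21, 6.81 and 6.94 on the 3 EDRL arrays, and the difference was -10.75 (SE 0.30, adjusted p = 6.35e-12). The Wnt regulator Dkk2 gave -5.28, -5.24 and -5.12 on the 3 ESRL arrays and 4.71, 4.50 and 4.52 on the 3 EDRL arrays, or -9.79 (SE 0.22, adjusted p = 1.27e-12). All EDRL arrays were above all ESRL arrays for both genes. The transcription factor Osr1 of intermediate mesoderm differed by -9.77, the membrane protein Tm4sf1 by -9.51, the water channel Aqp1 by -9.01 and the matrix protein Ccn3 by -8.83.

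Genes of the pluripotency circuit were almost uniformly higher in irradiated ES cells. Loss of stem cell markers was part of how ED cells were prepared, so this direction is no separate check of the labels. Of 23 listed genes, 21 could be tested, 20 were higher, 0 lower and 1 was not called, with a median difference of 7.77 beside -0.07 over all genes tested. The list median was 6.02 after normexp background correction. Pou5f1, which encodes Oct4, had a relative log2 signal of 7.03, 7.08 and 6.92 on the 3 ESRL arrays and -3.81, -3.78 and -3.47 on the 3 EDRL arrays and differed by 10.70 (SE 0.28, adjusted p = 2.92e-13). Its groups lay far apart. Sox2, which is also a factor of neural progenitors, remained well above background in ED cells: it read 3.89, 4.75 and 4.52 on the 3 ESRL arrays and 2.62, 2.47 and 2.48 on the 3 EDRL arrays, and the difference of 1.86 (SE 0.24, adjusted p = 1.38e-05) was among the smallest of the list. Fut4, an enzyme that can make the SSEA1 epitope, gave -2.55, -2.15 and -1.88 on the 3 ESRL arrays and -4.07, -4.15 and -3.90 on the 3 EDRL arrays and a difference of 1.85 (SE 0.27, adjusted p = 2.52e-05). Zfp42 (Rex1), Dppa3, Tfcp2l1 and Prdm14 were not well above background on any EDRL array, and the signal in ESRL was at least 10740-fold, 1756-fold, 257.8-fold and 313.2-fold higher. These bounds set the ESRL mean against the higher of the dimmest detected signal and the probe's own signal on the EDRL arrays. Klf4, a reprogramming factor that many differentiated cells also use, differed by -0.29 (SE 0.25, adjusted p = 0.326) and was the member not called. All spots of Nanog on the ESRL arrays were marked as outliers, so no difference is given for it.

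**Figure D2:**
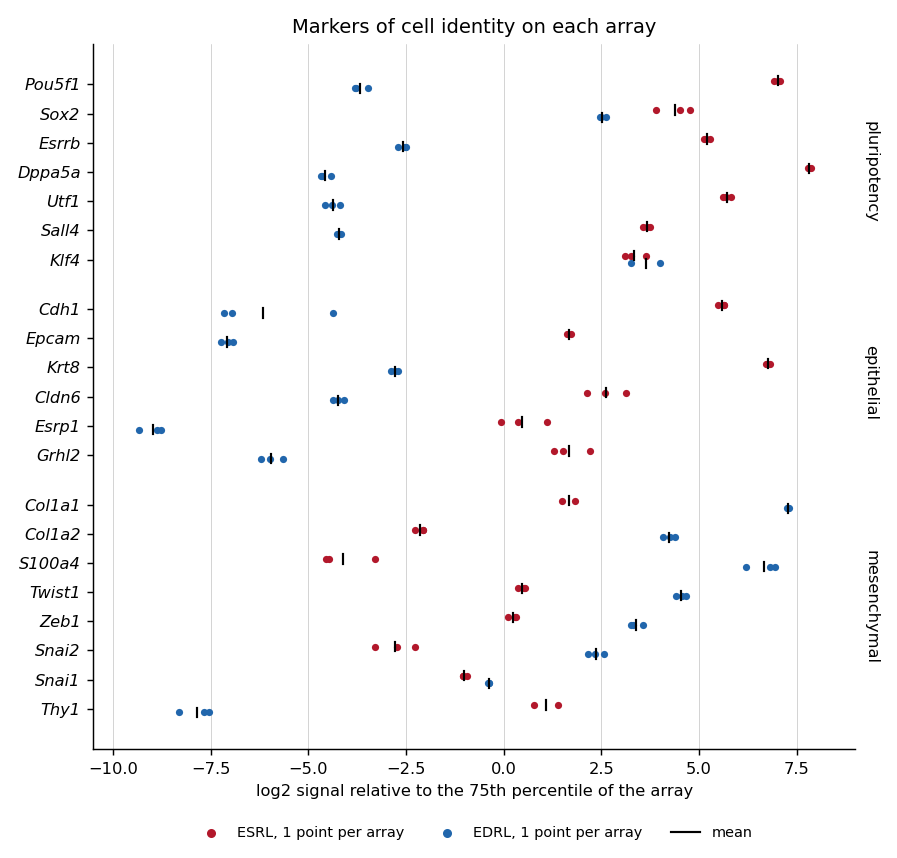
Relative log2 signal (horizontal axis) of pluripotency, epithelial and mesenchymal genes on each ESRL and EDRL array, 1 point per array, with lines at the group means. Pou5f1 lies near 7 on every ESRL array and near -4 on every EDRL array, and S100a4 shows the opposite arrangement.

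Epithelial genes separated the irradiated cell types without exception. All 14 listed genes were tested and higher in ESRL, with a median difference of 8.95, or 6.70 after normexp background correction. On all 3 EDRL arrays 7 of the 14 were well above background. Cdh1, the adhesion molecule E-cadherin, measured 5.65, 5.64 and 5.50 on the 3 ESRL arrays and -6.95, -7.16 and -4.36 on the 3 EDRL arrays, and differed by 11.75 (SE 0.70, adjusted p = 1.51e-09). EDRL array 3 was higher than the other EDRL arrays, yet still far below ESRL. Cdh1 was not well above background on all 3 EDRL arrays. The keratin Krt8 gave 6.81, 6.74 and 6.72 on the 3 ESRL arrays and -2.79, -2.88 and -2.70 on the 3 EDRL arrays and a difference of 9.55 (SE 0.19, adjusted p = 3.48e-14), with little spread in either group. Epcam, a surface protein of epithelia, read 1.62 and 1.72 on the 2 ESRL arrays with a usable spot and -6.93, -7.24 and -7.05 on the 3 EDRL arrays and differed by 8.75 (SE 0.22, adjusted p = 7.47e-13). Tight junction and keratin genes reached the largest bounds: Cldn4 was at least 4383-fold and Krt18 at least 1888-fold higher in ESRL. Esrp1, which directs epithelial splicing, was at least 249.1-fold higher and the junction gene Ocln at least 18.95-fold.

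Promoters of epithelial genes are shown because E-boxes in them are textbook targets of the SNAI and ZEB repressors, whose genes Snai2 and Zeb1 were higher in EDRL. The 250 bases before the start of each gene were taken from RefSeq (build GRCm38.p6), 5′ to 3′ on the strand of the gene, with CACCTG or its complement CAGGTG in capitals.
Epcam promoter, chr17:87635729-87635978 (+ strand): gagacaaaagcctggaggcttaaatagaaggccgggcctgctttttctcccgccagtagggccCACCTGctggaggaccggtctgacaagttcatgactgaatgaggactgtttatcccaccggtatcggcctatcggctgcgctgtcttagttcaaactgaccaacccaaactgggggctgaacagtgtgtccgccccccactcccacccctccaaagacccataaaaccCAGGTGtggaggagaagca
Krt8 promoter, chr15:102004343-102004592 (- strand): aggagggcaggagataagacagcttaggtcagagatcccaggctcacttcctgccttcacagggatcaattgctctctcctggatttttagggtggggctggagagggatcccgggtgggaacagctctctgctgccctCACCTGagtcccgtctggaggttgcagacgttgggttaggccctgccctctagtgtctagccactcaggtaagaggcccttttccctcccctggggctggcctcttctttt
Cldn4 promoter, chr5:134946935-134947184 (- strand): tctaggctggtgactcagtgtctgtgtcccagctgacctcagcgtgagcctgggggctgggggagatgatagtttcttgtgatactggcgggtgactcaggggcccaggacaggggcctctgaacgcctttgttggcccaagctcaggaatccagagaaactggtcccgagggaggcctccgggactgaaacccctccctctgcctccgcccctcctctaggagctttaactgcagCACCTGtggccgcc
Cldn6 promoter, chr17:23679115-23679364 (+ strand): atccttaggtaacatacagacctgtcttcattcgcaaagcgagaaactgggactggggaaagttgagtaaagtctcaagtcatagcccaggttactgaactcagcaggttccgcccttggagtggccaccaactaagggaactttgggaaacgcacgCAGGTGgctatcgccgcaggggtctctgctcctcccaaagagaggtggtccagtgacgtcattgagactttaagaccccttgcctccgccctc
A promoter entry, which spans 250 bases before and 50 after the start, was given for 8 of the 14 epithelial genes (Cldn3, Cldn4, Cldn6, Cldn7, Epcam, Krt18, Krt8 and Ocln). Of these, 8 of 8 genes held the motif on either strand in at least 1 entry, and 9 of 10 entries held it. Cldn3 had no match in the 250 bases before the start, and the promoters printed were taken from those with a match there. Over all 32841 RefSeq promoters 20.2% held it. The share was 24.4% in promoters of genes higher in ESRL, 15.8% in those lower and 18.1% in those not called, and it was 29.6% and 14.3% for genes higher and lower by over 4. Entries were found for 5969 of the 11892 genes called. Median ratios of observed to expected CpG were alike in both directions (0.595 and 0.592) and lower than the 0.741 of genes not called. They were 0.469 and 0.434 for genes higher and lower by over 4. A match describes these letters only.

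Mesenchymal genes showed the reverse picture, with 18 of 22 lower in ESRL, 2 higher and a median difference of -3.63. Fibrillar collagens led the group together with S100a4: Col1a2 differed by -6.36, Col3a1 by -6.86, the collagen crosslinking enzyme Lox by -6.91, and Col1a1 read 1.83 and 1.50 on the 2 ESRL arrays with a usable spot and 7.28, 7.25 and 7.29 on the 3 EDRL arrays, a difference of -5.61 (SE 0.19, adjusted p = 6.85e-10). Repressors of the epithelial state were lower in ESRL as well, with differences of -5.12 for Snai2, -4.07 for Twist1 and -3.14 for Zeb1. Snai1 did not exceed the limit on size, at -0.63 (SE 0.14, adjusted p = 0.00169). Vimentin (Vim) had 4.43 on the 1 ESRL array with a usable spot and 7.03, 7.58 and 7.67 on the 3 EDRL arrays and differed by -2.99 (SE 0.32, adjusted p = 9.06e-05). The members that were higher in ESRL were Tagln, an actin-binding protein of smooth muscle, at 2.97, and Thy1, a surface glycoprotein that ES cells carry too, which was at least 395.5-fold higher. Calls for Cdh2 and Fn1 were lost with scan time as a random block.

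Markers of the germ layers and of extraembryonic cells were for the most part higher in ESRL, and many were near background in EDRL. All 8 trophoblast genes were higher, with a median difference of 5.53, including Tfap2c at 8.24, Krt7 at 6.43 and Cdx2 at 6.29. After normexp background correction 6 were higher, with a median of 4.00. The value of Tfap2c rests on 1 usable array in 1 of the groups. The summed signal of the list relative to the 75th percentile was 21.3 to 39.8 on ESRL and 0.339 to 0.363 on EDRL arrays. Cdx2 and Elf5 were not well above background on any EDRL array. Gcm1 lost its call with scan time as a random block, which left 7 of 8. Of the mesoderm genes 7 of 9 were higher and 1 lower, with a median of 3.79 that was 1.66, with 0 lower, after normexp background correction, and Tbx6 lost its call with the random block. Brachyury (T) read -1.14, -0.63 and -0.45 on the 3 ESRL arrays and -9.19, -9.39 and -9.67 on the 3 EDRL arrays, which made it at least 107.8-fold higher in ESRL, and the summed signals were 1.44 to 1.74 and 0.391 to 0.42.

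Endoderm markers were divided. Of 9 tested, 6 were higher in ESRL with a list median of 3.27 (1.09 after normexp background correction), among them Foxa1 at 5.43 and Hnf4a at 4.93, and Dab2, an endocytic adaptor found in primitive endoderm and other cells, was lower with -1.79, -1.02 and -1.22 on the 3 ESRL arrays and 1.92, 1.85 and 1.71 on the 3 EDRL arrays. With array medians 5 were higher and 2 lower. The sum over the list was 2.04 to 3.02 in ESRL and 4.27 to 4.79 in EDRL, opposite to most of its members. Among 7 neuroectoderm genes tested Pax6 was higher (1.65), Map2 and Ncam1 were lower (-2.13 and -1.02) and 4 were not called, with a median of -0.42. The call for Pax6 was lost with scan time as a random block. The share of this list called was 42.86%, beside 49.4% over all genes. Of 6 blood and endothelium genes tested, 4 were higher and 1 lower, with a median of 1.80, and Tyrobp lost its call with the random block. The summed signal of the list was 2.90 to 3.46 on ESRL and 80.5 to 93.9 on EDRL arrays, opposite to most of these members. Csf1r, the receptor for macrophage growth factor, differed by 6.995. Cd34, a sialomucin of progenitors, endothelium and fibroblasts, gave -0.20, -0.16 and -0.38 on the 3 ESRL arrays and 6.51, 6.33 and 6.55 on the 3 EDRL arrays, a difference of -6.71 (SE 0.24, adjusted p = 1.85e-11). Of the leukocyte genes, Tyrobp was well above background on all 6 arrays, Csf1r on 3 ESRL arrays and 1 EDRL array, Itgam on 1 ESRL array and 0 EDRL arrays, and Ptprc (CD45) on 0 arrays of either group. The part of such cells in the differences was not tested.

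Most p53 target genes were not called between the irradiated cell types, although single members were far apart. Of 24 tested, 3 were higher in ESRL, 5 lower and 16 not called, and their median difference was -0.24. The share called was 33.3%, beside 49.4% over all genes. The split depended on the scaling: with arrays set to their medians, as in the deposited matrix, 2 were higher and 11 lower, with a median of -0.72. In the unirradiated pair, where 26.7% of all genes tested were higher in ES and 14.9% lower, 8 of 26 were higher and 0 lower, with a median of 0.62 beside 0.19 over all genes. Fas, the death receptor, had a relative log2 signal of -0.63, -0.45 and -0.49 on the 3 ESRL arrays and 2.38, 2.21 and 2.40 on the 3 EDRL arrays, so that every EDRL array was higher, and the difference was -2.86 (SE 0.21, adjusted p = 7.23e-08). The other, dimmer probe of Fas gave a smaller difference of -1.43. In unirradiated cells Fas measured -1.35, -1.37 and -1.005 on the 3 ES arrays and -0.68, -0.46 and 0.10 on the 3 ED arrays, a smaller distance of -0.89. The test of the change between the pairs gave -1.96 (SE 0.30, adjusted p = 0.00835), but with scan time as a random block the change of -2.02 was not called (adjusted p = 0.972). Cdkn1a, which encodes the cell cycle inhibitor p21, read -2.77, -2.11 and -3.20 on the 3 ESRL arrays and -0.60, -0.82 and -0.37 on the 3 EDRL arrays and differed by -2.10 (SE 0.29, adjusted p = 4.00e-05), with groups that did not overlap. The other probe of Cdkn1a gave -2.09. The change from the unirradiated pair, -1.30 (SE 0.42, adjusted p = 0.17), did not pass. Also lower in ESRL were Rrm2b, a ribonucleotide reductase subunit, at -1.57 and Ccng1 at -1.12. The call for Ccng1, and that for Plk3 in the other direction, was lost with scan time as a random block. Eda2r was called through another probe only.

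The members higher in ESRL were Pmaip1, Perp and Plk3. Pmaip1 (Noxa), a BH3-only inducer of apoptosis, measured 3.16, 3.04 and 3.10 on the 3 ESRL arrays and -6.996, -7.38 and -6.93 on the 3 EDRL arrays, a difference of 10.20 (SE 0.21, adjusted p = 5.29e-13). Perp, a desmosomal protein and apoptosis effector, gave 4.37, 4.74 and 4.71 on the 3 ESRL arrays and 1.69, 1.53 and 1.48 on the 3 EDRL arrays in the irradiated pair and 4.22, 3.94 and 4.16 on the 3 ES arrays and -0.62, -0.58 and -0.47 on the 3 ED arrays in the unirradiated pair. The difference of 3.04 (SE 0.15, adjusted p = 6.02e-10) after IR was smaller than the 4.66 without it, and the test of that change gave -1.62 (SE 0.22, adjusted p = 0.00343), a call that was lost with the random block (adjusted p = 0.563). Mdm2, the ubiquitin ligase that restrains p53, had 5.49, 5.15 and 5.21 on the 3 ESRL arrays and 4.79, 4.72 and 4.61 on the 3 EDRL arrays, and its 0.58 (SE 0.14, adjusted p = 0.00295) stayed under the limit on size. Bax differed by 0.32 (SE 0.33, adjusted p = 0.408). For Trp53 itself the usable arrays scattered, with -0.66 and 1.63 on the 2 ESRL arrays with a usable spot and 1.05, 1.01 and 1.01 on the 3 EDRL arrays, and the difference was -0.54 (SE 0.62, adjusted p = 0.472). Without ESRL array 1 the signs for Bax and Trp53 turned, and neither was called, whereas without ESRL array 2 Trp53 was at -1.69 and was called.

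**Figure D3:**
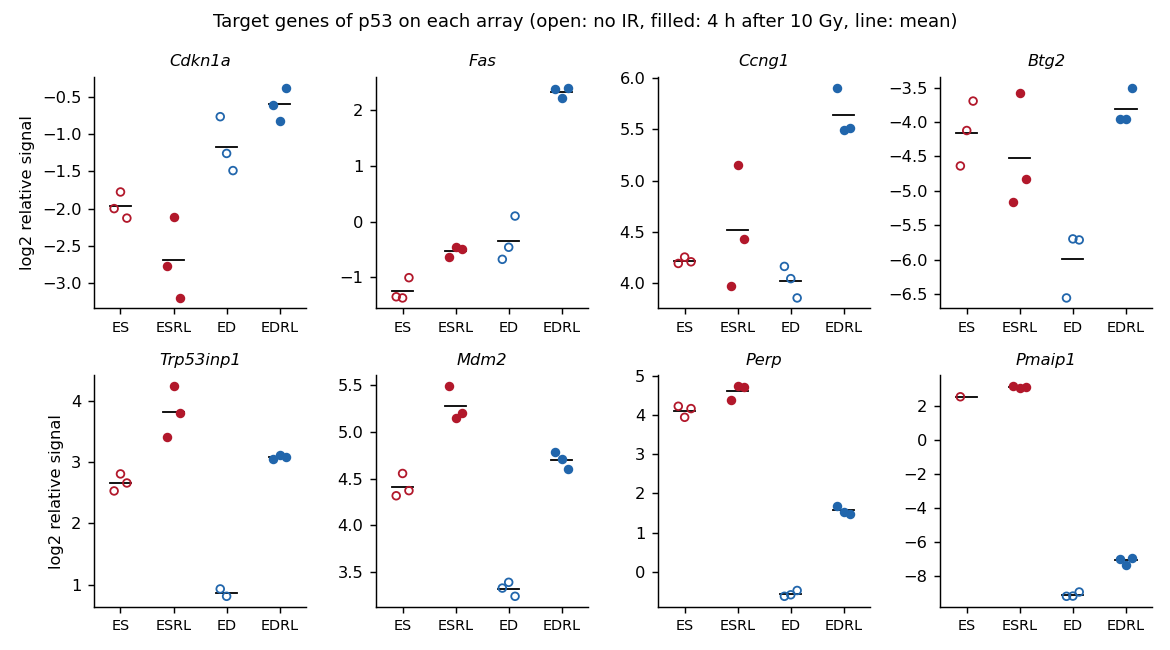
Relative log2 signal (vertical axis) of 8 p53 target genes on each array of ES and ESRL and of ED and EDRL, 1 point per array, open for unirradiated and filled for irradiated samples. Fas lies between 2.21 and 2.40 in EDRL and between -0.68 and 0.10 in ED, while in ESRL and ES it stays below 0.

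Cell death genes were distributed unevenly between the irradiated cell types. Of 15 BCL2 family genes tested, 6 were higher in ESRL and 5 lower, with a median difference of -0.15 that was 0.01 after normexp background correction. Those higher were mainly inducers of apoptosis of the BH3-only class, with Bik at 8.34, Hrk at 3.52, Bmf at 3.23 and Bcl2l11 (Bim) at 1.58 beside Pmaip1, and the protective Mcl1 at 1.84. The protective Bcl2 read -3.39, -2.42 and -2.73 on the 3 ESRL arrays and -0.12, -0.21 and -0.35 on the 3 EDRL arrays, a difference of -2.62 (SE 0.20, adjusted p = 1.22e-07). Bcl2l2 and Bcl2a1d, protective as well, and the death-promoting Bad and Bok were also lower, at -1.39, -1.19, -2.19 and -1.60. Caspases and their regulators were lower in 7 of 16 cases and higher in 0, with a median difference of -0.84, and in 11 cases with array medians. The share called was 43.75%, beside 24.5% lower and 25.0% higher over all genes. Casp1, which processes interleukin 1, was not well above background on any ESRL array and at least 591.9-fold higher in EDRL. Cflar, the inhibitor of Casp8, differed by -4.28, Casp12 by -3.56, Casp2 by -1.22 and Xiap by -1.14. The other probes of Bcl2 and Cflar gave smaller differences of -1.57 and -1.36. Casp8 was called through another probe, and not with scan time as a random block. The adaptor Cradd, at 0.92 (SE 0.24, adjusted p = 0.00468), was under the limit on size. Casp4 had no usable spot on the EDRL arrays. The survival kinase gene Akt1 was lower in ESRL, with 3.26, 2.68 and 2.91 on the 3 ESRL arrays and 5.14, 5.13 and 5.12 on the 3 EDRL arrays and a difference of -2.18 (SE 0.17, adjusted p = 1.26e-07).

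Most genes of DNA damage signaling were not called between irradiated ES and ED cells. Of 22 genes 5 were higher and 0 lower, with a median of 0.56, and 1 was higher, with a median of 0.17, when arrays were set to their medians. The checkpoint kinase gene Chek2 gave 2.21, 1.88 and 2.21 on the 3 ESRL arrays and 0.27, 0.41 and 0.34 on the 3 EDRL arrays, a difference of 1.75 (SE 0.27, adjusted p = 1.77e-04), and Hus1, Prkdc, Rad17 and Brca1 ranged from 1.04 to 1.28. Atm had 1 usable ESRL array and differed by -1.81 (SE 1.14, adjusted p = 0.187). In homologous recombination, 7 of 16 genes were higher and 1 lower, with a median of 0.82, and with array medians 3 were higher and 2 lower. Exo1, the nuclease that resects breaks, differed by 2.23 (SE 0.28, adjusted p = 5.79e-06). Rad51d was lower at -1.28. With scan time as a random block the calls for Blm, Palb2, Rad54b, Rad51d and Hus1 were lost. Among 11 end joining genes 4 were higher and 1 lower, with a median of 0.82, and with array medians 3 were higher and 2 lower. Here 45.45% were called, again near the share over all genes. Parp1, the sensor of strand breaks, read 4.28, 4.51 and 4.67 on the 3 ESRL arrays and 1.81, 1.82 and 1.83 on the 3 EDRL arrays and was higher by 2.66 (SE 0.18, adjusted p = 3.32e-08). Its relative Parp3 had -0.88, -0.41 and -0.77 on the 3 ESRL arrays and 2.21 and 2.24 on the 2 EDRL arrays with a usable spot, a difference of -2.91 (SE 0.18, adjusted p = 1.03e-07). Xrcc5, which encodes Ku80, differed by 1.52.

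Most of the replication and mitosis genes that were called were higher in irradiated ES cells. Of 33 DNA replication genes tested, 15 were higher in ESRL and 0 lower, with a median of 0.95. The counts were 8 and 1 with array medians (median 0.49), 11 and 1 after quantile normalization, 6 and 2 in the deposited matrix and 12 and 1 with scan time as a random block. In the unirradiated pair 6 of 29 were higher in ES than in ED, with a median of 0.40, and the test of the change between the pairs called 0 of 26 replication genes and 2 of 20 mitosis genes, both higher. Orc1, the largest subunit of the origin recognition complex, had 2.56, 2.73 and 2.59 on the 3 ESRL arrays and 0.10, -0.05 and -0.04 on the 3 EDRL arrays and differed by 2.62 (SE 0.14, adjusted p = 2.98e-09), and Rfc5 and Mcm10 followed at 2.12 and 2.04. Members of the mitosis list were higher in 8 of 22 cases and lower in 2 after IR, with a median of 0.56 (5 and 2, with a median of 0.07, with array medians), and higher in 1 and lower in 1 of 21 without. After IR 45.45% of this list and of the replication list were called, beside 49.4% over all genes (25.0% higher and 24.5% lower). Cdc20, an activator of the anaphase-promoting complex, measured 5.41, 5.04 and 5.04 on the 3 ESRL arrays and 3.22, 3.16 and 3.05 on the 3 EDRL arrays and 4.97, 4.94 and 4.83 on the 3 ES arrays and 4.13, 3.94 and 3.91 on the 3 ED arrays. Its difference was 2.02 (SE 0.35, adjusted p = 1.69e-04) after IR and 0.92 without. In EDRL it was lower than in ED on every array, and in ESRL it was higher than in ES. The change of 1.10 (SE 0.51, adjusted p = 0.321) did not pass the test. The kinetochore gene Cenpf passed, at 1.70 (SE 0.35, adjusted p = 0.041), with -2.63, -3.45 and -3.12 on the 3 ESRL arrays and -4.62, -4.25 and -4.76 on the 3 EDRL arrays after IR and -3.31, -2.80 and -2.80 on the 3 ES arrays and -2.51, -2.75 and -2.99 on the 3 ED arrays without. That call was lost with the random block (adjusted p = 0.972). Aurka, Ccnb1 and Plk1 were higher in ESRL by 2.04, 1.74 and 1.57, and the checkpoint gene Mad2l1 was lower, at -1.22. The value of Aurka rests on 1 usable array in 1 of the groups. Calls for Cdt1, Gins4, Pole, Bub1b and Mad2l1 were lost with the random block.

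Every one of the 9 cyclin-dependent kinase inhibitor and RB family genes tested was called, 3 higher and 6 lower in ESRL, with a median of -1.24. Cdkn2c (p18) read -1.69, -1.41 and -1.51 on the 3 ESRL arrays and 3.77, 3.56 and 3.60 on the 3 EDRL arrays, a difference of -5.18 (SE 0.27, adjusted p = 3.08e-10), and Cdkn1b (p27) differed by -2.69. In the other direction the imprinted Cdkn1c (p57) gave 2.11 and 2.45 on the 2 ESRL arrays with a usable spot and -5.36, -5.86 and -5.67 on the 3 EDRL arrays and a difference of 7.91 (SE 0.46, adjusted p = 2.22e-08). Cdkn2b and Cdkn2a were not well above background on any EDRL array and were at least 407.5-fold and 8.097-fold higher in ESRL. Rb1 was lower at -1.24, and Rbl1 was called through another probe.

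Immediate early genes that were called were more often lower than higher in irradiated ES cells. Of 17 immediate early genes, 8 were lower in ESRL and 2 higher, with a median of -0.98. The share called was 58.82%, beside 49.4% over all genes (25.0% higher and 24.5% lower). The AP-1 subunit gene Fosl1 gave -0.91, -1.31 and -1.22 on the 3 ESRL arrays and 3.65, 3.37 and 3.39 on the 3 EDRL arrays, a difference of -4.61 (SE 0.19, adjusted p = 9.19e-10), while Fosl2, Jun and Egr2 differed by -3.67, -3.60 and -2.38. Fos itself was higher in ESRL, at 0.71, 1.76 and 1.03 on the 3 ESRL arrays and 0.08, 0.05 and 0.09 on the 3 EDRL arrays, and the gap of 1.10 (SE 0.25, adjusted p = 0.00165) was narrower than the 2.91 of the unirradiated pair. That change gave -1.82 (SE 0.36, adjusted p = 0.0274). Both calls for Fos were lost with the random block, where the change had an adjusted p = 0.97. Ccn1 was higher as well, at 1.42, a value that rests on 1 usable array in 1 of the groups. In the deposited matrix 0 immediate early genes were called higher.

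All 13 cytokine and chemokine genes tested were called, 12 lower in ESRL and 1 higher, and the median difference was -4.37. The neutrophil chemokine Cxcl5 read -4.44, -3.46 and -3.79 on the 3 ESRL arrays and 4.88, 4.95 and 4.96 on the 3 EDRL arrays, a difference of -8.83 (SE 0.22, adjusted p = 2.68e-12). Cxcl1, of the same class, had -1.57, -1.08 and -1.30 on the 3 ESRL arrays and 5.44, 5.33 and 5.34 on the 3 EDRL arrays and differed by -6.69 (SE 0.17, adjusted p = 3.60e-12), beside -5.49 in the unirradiated pair, a change of -1.20 (SE 0.25, adjusted p = 0.0408) that was not called with the random block (adjusted p = 0.972). Interleukin 6 (Il6) measured -6.93, -5.86 and -6.24 on the 3 ESRL arrays and -0.20, -0.28 and -0.31 on the 3 EDRL arrays and differed by -6.08 (SE 0.23, adjusted p = 1.36e-10). The monocyte chemokines Ccl2 and Ccl7 and the T cell chemokine Ccl5 differed by -7.58, -5.81 and -7.53. In each of these genes no ESRL array reached an EDRL array. Tnf was the exception: it was dim in both groups and higher in ESRL, with -4.15, -4.87 and -4.42 on the 3 ESRL arrays and -6.82, -8.05 and -7.10 on the 3 EDRL arrays. Lif was called through another probe only and not with the random block.

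Promoters of Cxcl1 and Il6 are given because their NF-kappaB and AP-1 motifs are textbook elements of inflammatory genes. They are printed as above, with matches to the NF-kappaB consensus (1 free base in its center) and to TGANTCA (AP-1), on either strand, in capitals.
Cxcl1 promoter, chr5:90890995-90891244 (+ strand): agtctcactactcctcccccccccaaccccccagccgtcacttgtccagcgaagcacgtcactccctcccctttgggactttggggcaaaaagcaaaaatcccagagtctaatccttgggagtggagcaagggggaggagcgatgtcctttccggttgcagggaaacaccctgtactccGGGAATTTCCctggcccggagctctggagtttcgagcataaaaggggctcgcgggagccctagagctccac
Il6 promoter, chr5:30012864-30013113 (+ strand): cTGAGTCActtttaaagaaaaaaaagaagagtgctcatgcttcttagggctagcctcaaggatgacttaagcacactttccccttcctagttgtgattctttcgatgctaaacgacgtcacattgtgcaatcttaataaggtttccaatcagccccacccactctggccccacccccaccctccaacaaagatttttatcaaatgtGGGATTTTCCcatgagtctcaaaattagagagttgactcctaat
Cxcl1 and Il6 each had a match to the NF-kappaB motif, and Il6 also had 1 to AP-1. Of the 12 cytokine genes with a promoter entry, 4 held the NF-kappaB letters (Csf1, Cxcl1, Cxcl2 and Il6) and 4 held those of AP-1 (Cxcl10, Il1a, Il6 and Lif). Over all RefSeq promoters the shares were 0.411% and 7.81%. Among genes lower in ESRL they were 0.737% and 7.83%, and among genes higher 0.438% and 5.76%. For genes lower by over 4 the AP-1 share was 11.5%.

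PP2A, a phosphatase whose trimers combine a catalytic, a scaffold and a regulatory subunit, was represented by 21 tested genes. Of these 6 were higher in ESRL, 1 was lower and 14 were not called, whereas with arrays set to their medians, as in the deposited matrix, 2 were higher and 3 lower. The share called in the main setting was 33.3%, beside 49.4% over all genes. The catalytic subunit gene Ppp2ca had 2.27, 3.50 and 3.38 on the 3 ESRL arrays and 3.04, 3.28 and 3.40 on the 3 EDRL arrays. ESRL array 1 lay below all others and the remaining arrays overlapped. The difference of -0.19 (SE 0.28, adjusted p = 0.572) was not called, and without that array it was 0.20 (adjusted p = 0.321). In unirradiated cells the difference was -1.06 (SE 0.31, adjusted p = 0.0135), so Ppp2ca was called lower in ES, with a usable spot on 2 ES arrays. The change between the pairs, 0.87 (SE 0.42, adjusted p = 0.359), did not pass. Ppp2cb, the other catalytic gene, gave 4.44, 4.63 and 4.16 on the 3 ESRL arrays and 4.47, 4.54 and 4.45 on the 3 EDRL arrays and -0.08 (SE 0.18, adjusted p = 0.722). The largest difference in each direction was that of a regulatory subunit gene. Ppp2r2c read -2.12, -0.79 and -1.85 on the 3 ESRL arrays and -6.87, -6.51 and -7.09 on the 3 EDRL arrays and was higher in ESRL by 5.24 (SE 0.38, adjusted p = 1.60e-08), Ppp2r2b was higher by 4.04, and Ppp2r3a, with -3.69, -4.32 and -4.25 on the 3 ESRL arrays and -1.98, -2.13 and -2.26 on the 3 EDRL arrays, was lower at -1.96 (SE 0.22, adjusted p = 3.55e-06). The list median of 0.09 became -0.32 when each array was set to its median and -0.18 after quantile normalization. Ppp2r5c was called higher through another probe only, at 1.13, while its 2 brightest probes gave -0.19 and -0.37 and were not called. Lcmt1 and Ppp2r1b were also called higher and lost their calls with the random block.

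Most housekeeping genes were not called. Of 74 ribosomal protein genes 6 were higher and 0 lower with a median of 0.45, and 3 of 15 glycolysis genes were higher with a median of 0.50. With the random block Rpl27 and Rpl35 lost their calls, which left 4 ribosomal genes higher, and 1 was lower. Both medians were about 0 when arrays were set to their medians (-0.02 and -0.0021). Rps3a1 was the ribosomal member with the largest difference, 2.52, and among glycolysis genes the transporters Slc2a3 and Slc2a1 were higher by 11.65 and 1.70. Antioxidant genes were higher in 5 of 15 cases and lower in 2, with a median of 0.71, and with array medians 3 were higher and 4 lower, with a median of 0.23. Their share called, 46.67%, was near the 49.4% over all genes. The cystine transporter gene Slc7a11 measured -3.95, -3.53 and -4.02 on the 3 ESRL arrays and 4.07, 4.08 and 3.82 on the 3 EDRL arrays, a difference of -7.82 (SE 0.30, adjusted p = 4.46e-11), and Gsta4 and Sod1 were higher in ESRL by 4.14 and 2.43. In the DNA methylation list 4 of 7 genes were higher, with a median of 1.04. The share called was 57.14%, beside 49.4% over all genes. With array medians 2 were higher, with a median of 0.55, and the random block also left 2, without Tet2 and Uhrf1. Dnmt3l, the cofactor of the methyltransferases that set methylation anew, read 6.24, 5.87 and 5.95 on the 3 ESRL arrays and -2.77, -2.92 and -2.72 on the 3 EDRL arrays and differed by 8.82 (SE 0.19, adjusted p = 5.86e-14). Dnmt3b followed at 6.49, while the maintenance enzyme gene Dnmt1 differed by 0.14 (SE 0.17, adjusted p = 0.475).

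**Figure D4:**
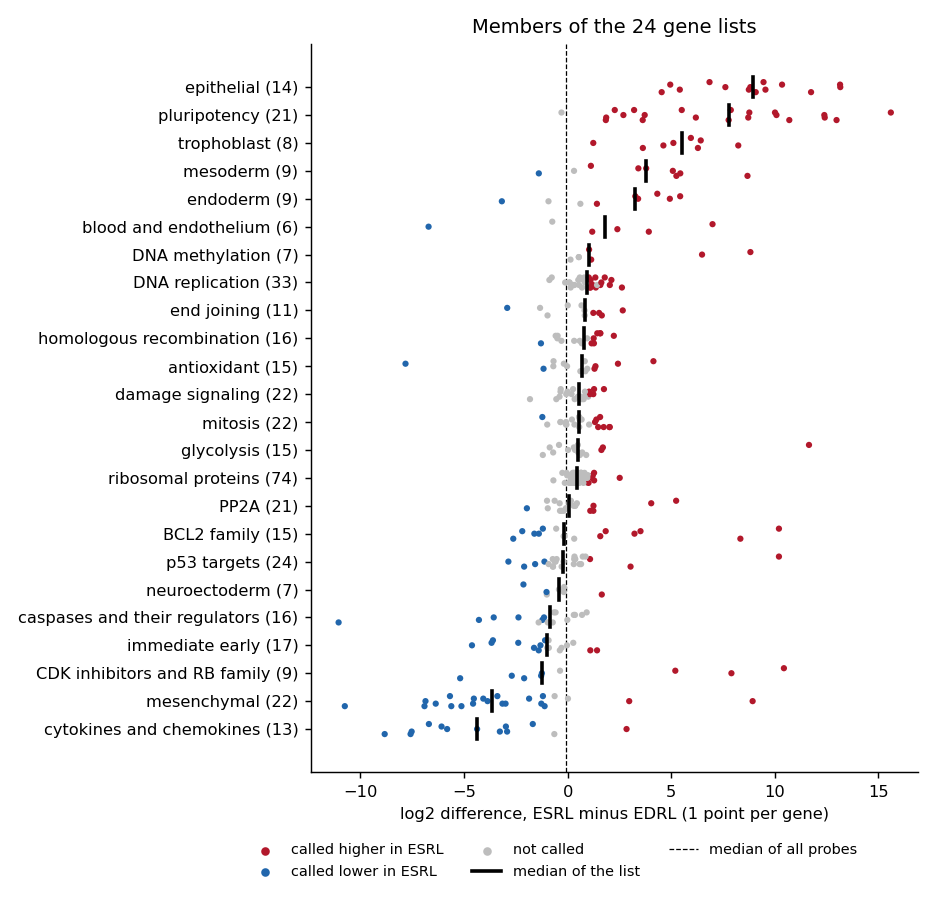
Difference ESRL minus EDRL on the log2 scale (horizontal axis) for the genes of 24 lists, 1 point per gene, colored by call, with a mark at each list median and a dashed line at the median of all probes. Epithelial and pluripotency medians lie at 8.95 and 7.77, the trophoblast median at 5.53, and those of cytokines and mesenchymal genes at -4.37 and -3.63.

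The same direction was found for most of these genes in the unirradiated pair. Of the genes called in ESRL against EDRL, 8227 were called the same way in ES against ED, which is 69.2% of the first set and 75.5% of the 10894 genes (41.5% of 26228 tested) called in the second. Opposite directions were seen for 16 genes. A further 3252 genes were called only in the irradiated pair and 1402 only in the unirradiated pair, among those tested in both, but a call in 1 pair alone does not show that the pairs differ. The test of that change called 301 of 26015 genes (1.16%), 64 with a higher and 237 with a lower difference after IR (0.246% and 0.911%). Of the 3252 genes, 130 were among them. The correlation of the 2 differences across 25391 probes was 0.951, across genes that are not independent replicates. The count of changes was not stable: with scan time as a random block 0 were higher and 1 lower, with 845 of 28375 probes at an unadjusted p under 0.05, and without ESRL array 2 the counts were 211 and 1176.

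**Figure D5:**
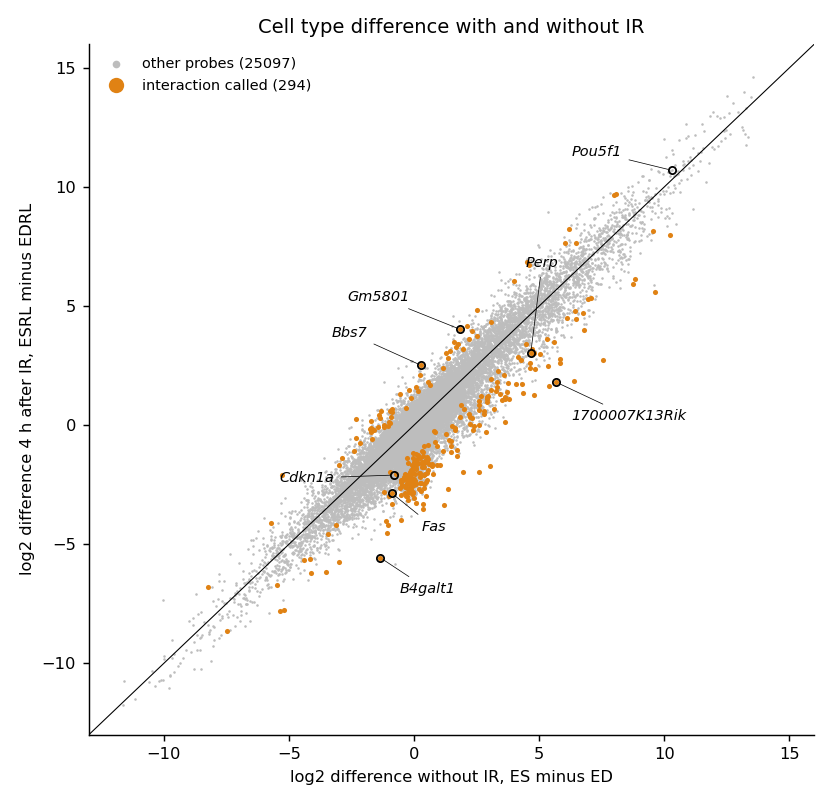
Difference between stem and differentiated cells on the log2 scale for each probe without IR (ES minus ED, horizontal axis) and 4 h after 10 Gy (ESRL minus EDRL, vertical axis), with the 294 probes called for a change between the pairs in color. Most of 25391 probes follow the diagonal, with a slope of 1.0.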

How the data were processed

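Expression was measured on one-color Agilent arrays of mouse genes, 1 array per Cy3-labeled sample, in 18 samples (3 in each of 6 groups), grouped from the sample labels. As deposited by the authors, the intensity values are the processed signals of Agilent Feature Extraction 10.7.3.1 per the file headers (the submitters' processing notes name 9.1), from which background is subtracted, with no normalization across arrays. A deposited matrix of log2 values, for 30133 probes, served as an alternative. Of 39448 spots per array, 1417 control spots and 200 unmarked negative controls were left out, which kept 37246 probes, 22216 of them named through RefSeq. Spots marked as outliers were left out of the fit, and with them any array without a usable spot for a probe.

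The log2 signal of a probe was set relative to the 75th percentile of its array. limma 3.58.1 in R 4.3.3 fitted 1 mean per group over all 18 arrays, with moderated variances and Benjamini-Hochberg adjustment over the probes tested. Contrasts were ESRL minus EDRL, ES minus ED, and the difference between them. The procedure was tested on simulated data with independent normal errors and no missing spots. Those data held no correlation within a slide, so the test does not cover it. A gene with several probes is shown by its brightest tested probe and counted by any probe.

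Arrays that share a scan time are treated as 1 slide, which is inferred. ESRL and EDRL lie on different slides, so that slide could enter only as a random block (consensus correlation 0.667). The genes named are a list of focal genes, the 8 largest differences in each direction among genes above background on all 6 arrays without overlap, the largest called member of each of 24 gene lists in each direction and the 3 largest changes between the pairs in each direction, and other list members were named beside them. Members and lists were chosen with earlier results of these data known. Motifs were searched in RefSeq promoters of build GRCm38.p6, and the array design is older, so the promoters were matched by symbol. In all, 16 alternatives, 12 arrays left out in turn and 1 alternative added after the data were seen were tried. Other groups entered only the shared estimate of spread. The values of 3 genes of these lists are not reported here.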

Additional observations from a re-analysis of the deposited data

Results flagged for a closer look

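By the limma test in the main setting, these genes were called for a change between the unirradiated and irradiated pairs. The change is ESRL minus EDRL, minus ES minus ED, on the log2 scale. ES, ED, ESRL and EDRL shared no scan time, so scan and IR cannot be told apart in it. Fas changed by -1.96 (adjusted p = 0.00835), Perp by -1.62 (adjusted p = 0.00343), Cxcl1 by -1.20 and the kinetochore gene Cenpf by 1.70 (adjusted p = 0.041 for both). The immediate early genes Fos and Zfp36 changed by -1.82 and -1.14, and Tek, the angiopoietin receptor, by -2.23.

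The largest changes among genes above background on all arrays of the 4 groups were those of B4galt1 (-4.20, adjusted p = 0.00343), 1700007K13Rik (-3.87), a transcribed ultraconserved element (uc.174+, -3.48), Bbs7 (2.22), Gm5801 (2.18) and a probe that the files name only by its transcript accession (2.56). B4galt1, a galactosyltransferase, had relative log2 signals of -4.35 and -5.86 on the 2 usable ESRL arrays, -0.75 ± 0.14 in ES (SD, n = 3), 0.45 ± 0.24 in EDRL and 0.62 ± 0.43 in ED. 1700007K13Rik was at -5.28 ± 0.07 in ED (SD, n = 3) and at -0.11 ± 0.08 in EDRL, beside 0.40 ± 0.11 in ES. With scan time as a random block 0 of these 13 changes were called, with adjusted p from 0.563 to 0.972, although each kept its direction.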

How the results depend on the processing

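Of 70 named genes, 57 kept direction and call under every setting. Signs turned only for differences that were not called in the main setting. With single arrays left out, Ppp2ca ranged from -0.41 to 0.20, Ppp2cb from -0.19 to 0.0481, Bax from -0.0449 to 0.54 and Trp53 from -1.69 (called, without ESRL replicate 2) to 0.60. Bax was at -0.16 with arrays set to their medians and in the deposited matrix and at -0.0387 with slide as a random block, and the probe named by its accession was at -0.23 with array medians and -0.18 after quantile normalization.

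Genes lower in ESRL numbered 3836 after normexp, 8867 with arrays set to their medians and 3531 where all arrays compared were above background. ES over ED gave 4543 in the deposited matrix, 3907 with all arrays above background and 4520 with the slide block, ED over ES 6971 with array medians and 6574 in the matrix, and calls shared by both pairs 5351 with all arrays above background. Changes between the pairs, higher and lower, were 2 and 16 after normexp, 3 and 20 after quantile normalization, 37 and 129 in the matrix, 0 and 1 with the slide block, 210 and 574 with only the arrays compared, 599 and 2062 by the methods' t-test on the same values without adjustment, 197 and 468 once its p-values were adjusted (Benjamini-Hochberg), and 317 and 645 without EDRE replicates 2 and 3, an alternative chosen after seeing the data. Lower changes were 149 with array medians and 128 with all arrays above background, and higher changes 37 without a filter. The cause was not tested.

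The replicate block gave 5940 higher and 5864 lower genes in ESRL and 29 and 151 changes between the pairs. Deviations of ESRL and EDRL arrays of 1 number had correlations of 0.0449, -0.0475 and -0.00925. Arrays of unlike numbers gave values from -0.0874 to 0.0942. Deviations from the mean of so few arrays depend on each other, so these values cannot decide on a pairing. Whether a number stands for a shared culture was not tested.

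With single arrays left out, genes higher in ESRL ranged from 5855 to 6476, lower from 5109 to 6692, ES over ED from 6458 to 7059, ED over ES from 3659 to 3961, shared calls from 7858 to 8578, and changes from 21 to 211 higher and from 107 to 1176 lower, the most without ESRL replicate 2.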

Other observations

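Groups of names chosen after their values were seen also leaned one way. Of 270 olfactory receptor genes tested, 109 (40.4%) were lower in ESRL and 11 higher, with a median difference of -0.995 (log2) and a median relative log2 signal of -5.83, near the dim end of the probes tested. Vomeronasal receptor genes gave 37 lower and 10 higher of 98. Probes named only by an AK accession were lower in 1580 and higher in 613 of 4801 cases. Over all genes tested, 24.5% were lower and 25.0% higher.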
